A study of Mus musculus with 16 samples.

Results

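The 8 genes described here, Cldn4, Cldn6, Cldn7, Marveld2, Ocln, Tjp1, F11r and Cgn, encode proteins of the tight junction and were taken by gene name from a table of 43437 genes measured in mouse 8-cell embryos. All 8 had at least 1 FPKM (mapped fragments, scaled to transcript length and to the size of the library) in at least 4 of the 16 libraries, as did 11422 genes in all. Embryos had been injected as zygotes with double-stranded RNA (dsRNA), which triggers degradation of matching transcripts, against GFP (a gene that embryos lack, the control), Tfap2c, Tead4, or Tfap2c and Tead4 together. The control embryos were therefore injected too. Each group had 4 libraries, each from a pool of 10 zona-free embryos, or about 80 cells, grown in KSOM medium. In every group, libraries A1 and A2 came from a cross in which mothers were C57BL/6J×CBA/J hybrids, and libraries B1 and B2 from a cross in which they were C57BL/6J×DBA/2J hybrids. Fathers were labelled as hybrids of C57BL/6J with a DBA strain, whose number in the labels runs on from one library to the next and is not used here. The labels do not say whether libraries of a group came from separate matings or injection days, and p-values here rest on the spread among these libraries, which may be technical. In pooled embryos, fewer cells with a transcript and less transcript per cell cannot be told apart.

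Tight junctions seal the space between neighbouring cells of an epithelium and are built from claudins, which form the sealing strands, the MARVEL-domain proteins occludin and tricellulin, junctional adhesion molecules, and cytoplasmic scaffolds that tie these to actin. In the mouse embryo they are assembled stepwise, from compaction at the 8-cell stage onward, in the outer cells that become trophectoderm. The finished seal lets the blastocyst hold its fluid-filled cavity. Tfap2c and Tead4 are transcription factors of the AP-2 and TEAD families that act in the first choice between trophectoderm and inner cell mass.

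The promoters of 3 genes are printed because the results turn on these genes. Cldn4 fell with Tfap2c dsRNA, Marveld2 fell in all 3 knockdown groups, and Cldn6 differed between the knockdowns, though with overlapping libraries. Each run is the stretch from 150 bases before the annotated start to shortly after it, 5′ to 3′ on the gene's strand, from RefSeq on mm10. Capitals mark the AP-2 motif GCCNNNGGC or the TEAD motif CATTCC where a run holds one. The TEAD motif was searched on the other strand as well, where it reads GGAATG.
Cldn4, chr5:134946915-134947084, minus strand: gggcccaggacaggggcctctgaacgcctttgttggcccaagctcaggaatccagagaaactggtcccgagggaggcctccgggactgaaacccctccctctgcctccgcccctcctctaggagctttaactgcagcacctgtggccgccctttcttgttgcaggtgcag
Marveld2, chr13:100616952-100617121, minus strand: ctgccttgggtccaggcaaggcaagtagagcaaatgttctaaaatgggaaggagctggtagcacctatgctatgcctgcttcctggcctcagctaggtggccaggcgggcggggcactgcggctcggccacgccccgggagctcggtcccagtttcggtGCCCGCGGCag
Cldn6, chr17:23679215-23679377, plus strand: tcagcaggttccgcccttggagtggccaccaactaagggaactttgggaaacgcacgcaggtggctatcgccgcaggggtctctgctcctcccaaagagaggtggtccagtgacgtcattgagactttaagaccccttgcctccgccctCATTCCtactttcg

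The windows searched ran from 250 bases before to 50 after each start, on both strands, and promoters were found for 8 of the 8 genes. The AP-2 motif GCCNNNGGC was in a window of Marveld2, Ocln, Tjp1 and F11r, or 4 of 8 genes, and in 18.5% of 27025 genes. In Marveld2 it read GCCCGCGGC, 10 to 18 bases after the start of the printed run and from -18 to -10 of another annotated start. The TEAD motif was in a window of Cldn6, spanning the start from base -1 to base 5, and of Cldn7, from -70 to -65, or 2 of 8 genes, and in 16.6% of all genes. The Cldn4 and Cgn windows held neither set of letters. These matches describe letters in short windows and say nothing of binding.

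The injected targets were measured first. Tfap2c stood at 43.2, 38.8, 28.3 and 32.4 FPKM in the GFP libraries A1, A2, B1 and B2, at 13.9, 15.4, 16.1 and 17.8 after Tfap2c dsRNA, and at 16.4, 16.1, 16.4 and 15.7 after both dsRNAs. Tead4 stood at 58.4, 46.5, 47.7 and 41.8 FPKM with GFP dsRNA, at 8.05, 5.57, 5.99 and 11.01 after Tead4 dsRNA, and at 8.17, 5.40, 9.62 and 14.8 after both. Each target was lower in every library that received its dsRNA than in every GFP library. Tead4 also stood lower after Tfap2c dsRNA alone, at 19.0, 25.9, 37.4 and 30.8 FPKM, whereas Tfap2c after Tead4 dsRNA alone stood at 37.1, 34.8, 33.7 and 33.4, inside the GFP range.

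The absolute depth of the libraries is unknown, and their relative depth, read from low values of 924 genes, ran from 0.876 to 1.12. Mitochondrial transcripts took 7.06 to 12.1% of the FPKM sum. All 12 cumulus cell markers and all 7 sperm markers were under 1 FPKM in every library. Of 6 blood markers, 3 were at 0 everywhere and 2, the alpha-globin genes Hba-a1 and Hba-a2, were measured; the list summed to 9.86 to 26.8 FPKM with GFP dsRNA, 29.1 to 63.0 with Tfap2c dsRNA, 20.3 to 50.8 with Tead4 dsRNA and 40.7 to 77.7 with both. All 10 markers of preimplantation embryos were measured, and their sum was 13296 to 15772 FPKM with GFP dsRNA, 9770 to 11156 with Tfap2c dsRNA, 11487 to 13595 with Tead4 dsRNA and 9918 to 12938 with both; the injected targets are among those 10. Of 10 markers of the blastocyst's trophectoderm, 6 were under 1 FPKM in every library. The summed 2-cell markers reached 371 FPKM in double knockdown library B1, against 11.7 to 62.9 in all GFP and single knockdown libraries. The part of these differences in the results below was not tested, and without library B1 the double knockdown calls given below for Cldn4, Marveld2, Cgn and Cldn6 remained, except that for the excess of Marveld2 over the summed single changes.

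In control embryos the adhesion molecule gene F11r and the claudin gene Cldn7 were by far the highest of the 8. F11r averaged 111 ± 20.3 FPKM (SD, n = 4) and Cldn7 86.9 ± 13.7, with overlapping libraries. Cldn6 (14.8 ± 5.19), Cgn (14.1 ± 2.40) and Ocln (13.3 ± 5.05) came next and overlapped one another. Tjp1 (7.57 ± 0.894) and Cldn4 (7.12 ± 0.775) overlapped as well, and Marveld2, at 4.56 ± 1.03, lay below all libraries of both. The plot of levels by injection shows which of these levels moved.

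**Figure D1:**
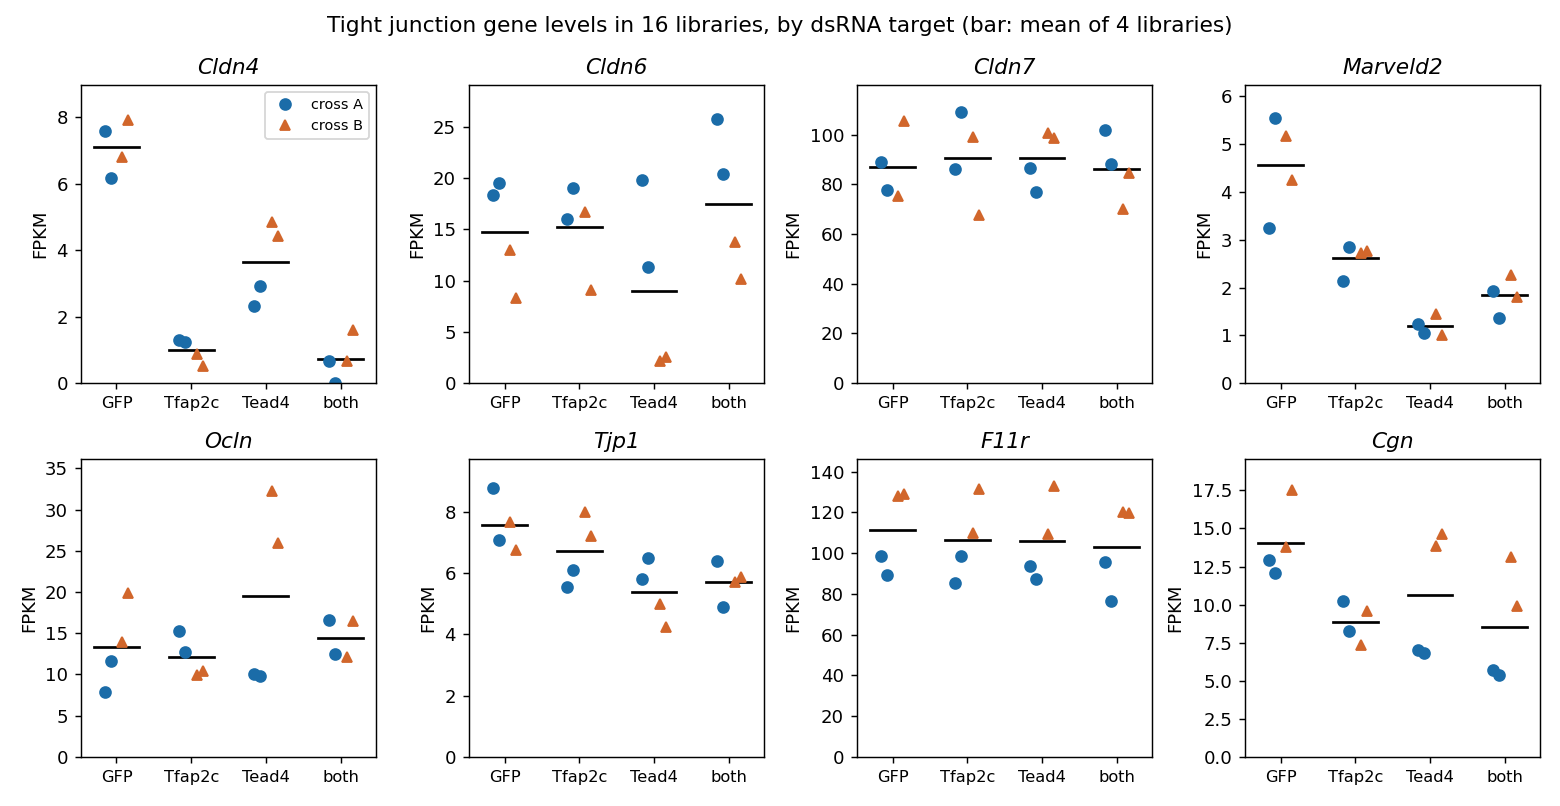
FPKM of each of the 8 genes in the 16 libraries, with the dsRNA target on the horizontal axis, circles for cross A, triangles for cross B and a bar at the mean of 4 libraries. Cldn4 and Marveld2 lie below every GFP library in all 3 knockdown groups, while Cldn7 and F11r keep overlapping levels throughout.

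Of the 8 genes, 3 were lower and 0 higher after Tfap2c dsRNA, 1 lower and 0 higher after Tead4 dsRNA, and 3 lower and 0 higher after both. Each change is a difference in log2(FPKM + 1) from a limma fit over all 16 libraries with the cross as a term, and passed when its p, adjusted by Benjamini-Hochberg over all 11422 genes, was under 0.05. Over all genes tested, 29.6% passed after Tfap2c dsRNA (13.2% as lower), 6.13% after Tead4 dsRNA (2.78% as lower) and 25.1% after both (11.3% as lower). The 3, 1 and 3 genes of 8 stand beside those shares, and with 8 genes no more can be read from them. The median change over the 8 genes was -0.12, -0.44 and -0.23 in the same order, and over all genes 0.06, 0.05 and 0.05. The 3 comparisons share their GFP libraries.

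**Figure D2:**
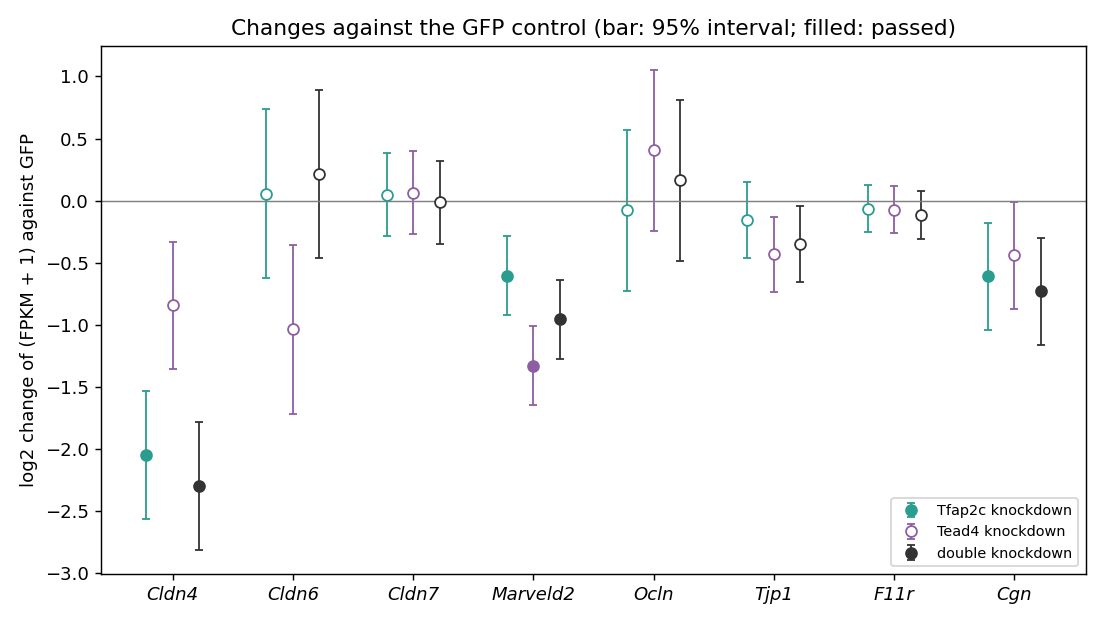
Change of each gene against the GFP libraries in log2(FPKM + 1), with 95% intervals of the fit, for Tfap2c, Tead4 and double knockdown; filled points passed the threshold. The filled points are Cldn4 and Cgn with Tfap2c dsRNA alone or with both, and Marveld2 in all 3 knockdown groups, and each lies below 0.

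Cldn4 (ENSMUSG00000047501, chromosome 5, 134945123 to 134946934) encodes a sealing claudin that is known, with Cldn6, to be needed for blastocyst formation. It showed the largest fall of the 8 genes. The GFP libraries A1, A2, B1 and B2 held 7.57, 6.19, 6.81 and 7.92 FPKM of it. After Tfap2c dsRNA it stood at 1.31, 1.24, 0.874 and 0.522 FPKM, and after both dsRNAs at 0.683, 0, 0.681 and 1.61. Every library with Tfap2c dsRNA was therefore below every control library, and 1 double knockdown library listed the gene at 0. The change was -2.05 (SE 0.240) on the log2 scale after Tfap2c dsRNA (limma, adjusted p = 2.48e-05) and -2.30 (SE 0.240) after both (limma, adjusted p = 1.41e-05). On the plain FPKM scale the mean after Tfap2c dsRNA was 13.9% of the control mean, more of a fall than the pseudocount of 1 lets the log2 change show. The exact two-sided permutation p was 0.0286 in both cases, the smallest that 4 against 4 libraries allow. Within cross A the changes were -1.79 and -2.60, and within cross B -2.30 and -2.00.

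After Tead4 dsRNA alone Cldn4 stood at an intermediate level of 2.32, 2.94, 4.85 and 4.43 FPKM. All 4 libraries were below the controls and above all libraries with Tfap2c dsRNA. The change of -0.84 (SE 0.240, 95% interval -1.36 to -0.33) missed the threshold (limma, adjusted p = 0.0515). It passed after median-ratio rescaling (0.0380), after quantile normalization (0.0434) and in a fit of these 2 groups alone (0.0158), 3 of 17 alternatives. Cldn4 was lower after Tfap2c than after Tead4 dsRNA by -1.20 (SE 0.240; limma, adjusted p = 0.00158), though within cross A the difference was -0.67 and did not pass (0.144), and lower with both than with Tead4 dsRNA alone by -1.45 (SE 0.240; limma, adjusted p = 0.000525). Adding Tead4 dsRNA to Tfap2c dsRNA gave a difference of -0.25 (95% interval -0.76 to 0.26), which did not pass (limma, adjusted p = 0.799).

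Cldn6 (ENSMUSG00000023906, chromosome 17, 23679348 to 23682446) encodes a claudin of embryonic epithelia. Its GFP libraries stood at 18.4, 19.5, 13.0 and 8.29 FPKM, with cross A above cross B. After Tfap2c dsRNA the values were 16.04, 19.0, 16.7 and 9.06, and after both 25.8, 20.4, 13.8 and 10.2. These groups overlapped the controls, and the changes of 0.06 (95% interval -0.62 to 0.73) and 0.22 (95% interval -0.46 to 0.89) did not pass.

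After Tead4 dsRNA alone, Cldn6 stood at 19.8 and 11.4 FPKM in cross A but at 2.18 and 2.56 in cross B. The cross B libraries were the lowest of all 16. The pooled change of -1.04 (SE 0.317) did not pass (limma, adjusted p = 0.0663), and without Tead4 knockdown library A1 it was -1.38 and passed (adjusted p = 0.00979). Within the crosses the change was -0.31 in A and -1.76 in B. The difference of -1.45 (SE 0.431) between the crosses' responses did not pass over all genes (limma, adjusted p = 0.543). Cldn6 was higher with both dsRNAs than with Tead4 dsRNA alone by 1.25 (SE 0.317; limma, adjusted p = 0.00989), by 0.58 within cross A and 1.93 within cross B. It was also higher after Tfap2c than after Tead4 dsRNA by 1.09 (SE 0.317; limma, adjusted p = 0.0173), by 0.20 within cross A and 1.99 within cross B. Both pairs of groups overlapped, with exact permutation p of 0.171 and 0.257. The second of these calls was lost without Tfap2c knockdown library B1 (adjusted p = 0.0642), Tead4 knockdown library B1 (0.0658) or B2 (0.0632), with no filter on low values (0.0510) and in a fit of the groups compared alone (0.0645). Without the cross term both calls were lost (0.117 and 0.152), and in fits within cross A likewise (0.174 and 0.632).

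Cldn7 (ENSMUSG00000018569, chromosome 11, 69964779 to 69967886), a claudin also found along lateral membranes, was high and had no change that passed. Its control libraries stood at 89.0, 77.7, 75.5 and 106 FPKM. With Tfap2c dsRNA it stood at 86.3, 109, 99.0 and 67.7, with Tead4 dsRNA at 86.5, 77.0, 100.4 and 98.8, and with both at 102, 88.0, 70.003 and 84.5. All groups overlapped. The 95% intervals of the changes ran from -0.29 to 0.38 after Tfap2c dsRNA, from -0.27 to 0.40 after Tead4 dsRNA and from -0.35 to 0.32 after both.

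Marveld2 (ENSMUSG00000021636, chromosome 13, 100595957 to 100616971) encodes tricellulin, which seals the points where several cells meet. It was the only one of the 8 genes to pass in all 3 comparisons with GFP. The controls stood at 3.25, 5.55, 5.18 and 4.25 FPKM. Tfap2c knockdown libraries stood at 2.13, 2.85, 2.72 and 2.77 FPKM, Tead4 knockdown libraries at 1.25, 1.05, 1.45 and 1.01, and double knockdown libraries at 1.92, 1.37, 2.27 and 1.81. No knockdown library reached the lowest control. The change was -0.61 (SE 0.149) after Tfap2c dsRNA (limma, adjusted p = 0.00708), -1.33 (SE 0.149) after Tead4 dsRNA (limma, adjusted p = 0.000111) and -0.96 (SE 0.149) after both (limma, adjusted p = 0.000321). Each had an exact permutation p of 0.0286. Within cross A these changes were -0.60, -1.30 and -1.003, and within cross B -0.61, -1.36 and -0.91. In fits of the 8 libraries of 1 cross, the Tfap2c change was as large but did not pass (limma, adjusted p = 0.152 in A and 0.0747 in B), while the other changes passed in both.

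The order of the single knockdowns was thus the reverse of that for Cldn4. Marveld2 was higher after Tfap2c than after Tead4 dsRNA by 0.72 (SE 0.149; limma, adjusted p = 0.00196), with separate libraries. With both dsRNAs it was 0.37 higher than with Tead4 dsRNA alone (limma, adjusted p = 0.0841) and 0.35 lower than with Tfap2c dsRNA alone (limma, adjusted p = 0.468), and neither difference passed. The double knockdown fell by less than the sum of the single changes: the excess over that sum was 0.98 (SE 0.211; limma, adjusted p = 0.0459), the only 1 of the 8 genes to pass, beside 0.753% of all genes. That call passed in 7 of 24 alternatives, and 14 of the 16 libraries, left out singly, ended it, with values of 0.86 to 1.03 and adjusted p from 0.0673 to 0.0992; it remained without GFP library A1 and without double knockdown library A2. The FPKM of Marveld2 is low, so its changes on this scale are understated.

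Ocln (ENSMUSG00000021638, chromosome 13, 100496504 to 100552718) lies 43238 bases from Marveld2 and encodes occludin, another MARVEL-domain strand protein. Its controls stood at 7.85, 11.6, 13.9 and 19.9 FPKM. With Tfap2c dsRNA it stood at 15.3, 12.7, 9.95 and 10.4 FPKM, with Tead4 dsRNA at 10.0, 9.78, 32.3 and 25.9, and with both at 16.6, 12.4, 12.2 and 16.5. The groups overlapped, and the changes of -0.08, 0.41 and 0.16 did not pass. The 95% intervals were wide, such as -0.73 to 0.57 after Tfap2c dsRNA. Within the crosses the values went apart: after Tfap2c dsRNA both cross A libraries were above their controls, by 0.50, and both cross B libraries below theirs, by -0.66. In a fit of cross B alone, Ocln was lower after Tfap2c than after Tead4 dsRNA by -1.42 (limma, adjusted p = 0.00458) and lower with both than with Tead4 dsRNA by -0.98 (limma, adjusted p = 0.0280). In cross A the same differences were 0.46 and 0.50 and did not pass (limma, adjusted p = 0.205 and 0.182).

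F11r (ENSMUSG00000038235, chromosome 1, 171437561 to 171464593) encodes junctional adhesion molecule A, an early junction component. Its controls stood at 98.4, 89.5, 128 and 129 FPKM. With Tfap2c dsRNA the values were 85.4, 98.4, 110.1 and 131, with Tead4 dsRNA 93.7, 87.5, 109 and 133, and with both 95.7, 76.6, 120.4 and 119.6 in libraries A1, A2, B1 and B2. The groups overlapped, and cross B stood above cross A in each of them. The changes were narrow, with 95% intervals of -0.26 to 0.13, -0.26 to 0.12 and -0.31 to 0.08, and none passed.

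Tjp1 (ENSMUSG00000030516, chromosome 7, 65296165 to 65527850) encodes a zonula occludens scaffold that binds claudins and actin. Its controls stood at 8.78, 7.07, 7.67 and 6.76 FPKM. With Tfap2c dsRNA it stood at 5.55, 6.09, 8.01 and 7.21 FPKM, with Tead4 dsRNA at 5.79, 6.50, 4.98 and 4.25, and with both at 6.39, 4.90, 5.72 and 5.88. The Tead4 and double knockdown libraries all lay below the lowest control, each with an exact permutation p of 0.0286. The changes of -0.43 (SE 0.143; limma, adjusted p = 0.0871) and -0.35 (SE 0.143; limma, adjusted p = 0.0884) nevertheless missed the threshold over all genes.

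Cgn (ENSMUSG00000068876, chromosome 3, 94760069 to 94787725) encodes cingulin, a plaque protein that links the scaffolds to actin, myosin and microtubules. Its controls stood at 12.9, 12.1, 13.8 and 17.5 FPKM. With Tfap2c dsRNA it stood at 10.2, 8.28, 7.38 and 9.60 FPKM, with Tead4 dsRNA at 7.04, 6.84, 13.9 and 14.7, and with both at 5.68, 5.37, 13.1 and 9.94. The Tfap2c knockdown libraries were all below the controls, whereas after Tead4 dsRNA only cross A was. The change was -0.61 (SE 0.201) after Tfap2c dsRNA (limma, adjusted p = 0.0341) and -0.73 (SE 0.201) after both (limma, adjusted p = 0.0153). The exact permutation p was 0.0286 and 0.0857. After Tead4 dsRNA the change of -0.44 (SE 0.201) did not pass (limma, adjusted p = 0.224). Within cross A the changes with Tfap2c, Tead4 and both dsRNAs were -0.40, -0.77 and -1.05, and within cross B -0.81, -0.12 and -0.41.

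The Cgn calls were the least steady of those against GFP. That for Tfap2c dsRNA was lost without GFP library A1 (adjusted p = 0.0884), A2 (0.0746) or B2 (0.0769) and without Tfap2c knockdown library B1 (0.115, with a change of -0.43) or B2 (0.0913). That for both dsRNAs was lost without double knockdown library A2 (0.0524). Without the cross term the values were 0.138 and 0.0859, and with no filter on low values the Tfap2c call had 0.0790. In fits within a cross, the Tfap2c call was lost in A (0.115) and the double knockdown call in B (0.236).

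Set against each other, the knockdowns differed at Cldn4, Cldn6 and Marveld2. For Cldn6 the groups overlapped, and its calls were lost without the cross term. Between Tfap2c and Tead4 knockdown 3 of the 8 genes passed, Cldn4 as lower and Cldn6 and Marveld2 as higher after Tfap2c dsRNA, beside 29% of all genes. Between double and Tead4 knockdown 2 passed, Cldn4 as lower and Cldn6 as higher with both, beside 23.7% of all genes. Between double and Tfap2c knockdown 0 of 8 passed in limma, beside 0.14% of all genes. In a fit of cross B alone, Tjp1 was also higher (0.62; limma, adjusted p = 0.0348) and Cgn lower (-0.70; limma, adjusted p = 0.0447) after Tfap2c than after Tead4 dsRNA, against -0.07 for Tjp1 and 0.36 for Cgn in cross A, neither of which passed. At an unadjusted p under 0.05 the comparison of double with Tfap2c knockdown held 1 of the 8 genes, Marveld2, and 1087 of all genes.

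The crosses differed in level at 3 of the 8 genes with the injection held fixed, beside 33.5% of all genes. Cldn6 was lower in cross B than in cross A by -1.11 (SE 0.224, limma, adjusted p = 0.00180). That gap was widest after Tead4 dsRNA, with 19.8 and 11.4 FPKM in cross A and 2.18 and 2.56 in cross B. After Tfap2c dsRNA the crosses overlapped at Cldn6, with 16.04 and 19.0 FPKM in cross A and 16.7 and 9.06 in cross B. F11r was higher in cross B by 0.43 (SE 0.0637, limma, adjusted p = 0.000170) and Cgn by 0.51 (SE 0.142, limma, adjusted p = 0.0126). The Cgn difference did not hold after Tfap2c dsRNA, with 10.2 and 8.28 FPKM in cross A and 7.38 and 9.60 in cross B. Whether these level differences are the mother's strain or anything else that differed between the 2 sets of libraries cannot be told apart.

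No difference of a response between the crosses passed: 0 of 8 genes for Tfap2c, Tead4 and both dsRNAs in limma, beside 0%, 0% and 0% of all genes. At an unadjusted p under 0.05 the counts were 1 (Ocln), 3 (Cldn6, Ocln and Cgn) and 2 (Ocln and Cgn) of the 8, and 1888, 797 and 1284 of all genes. For Ocln, the response in cross B minus that in cross A was -1.16, 0.71 and -0.76 in that order, and for Cgn after Tead4 dsRNA 0.65 and after both 0.64. The plot of changes within each cross shows these gaps beside the near-equal values for Marveld2.

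**Figure D3:**
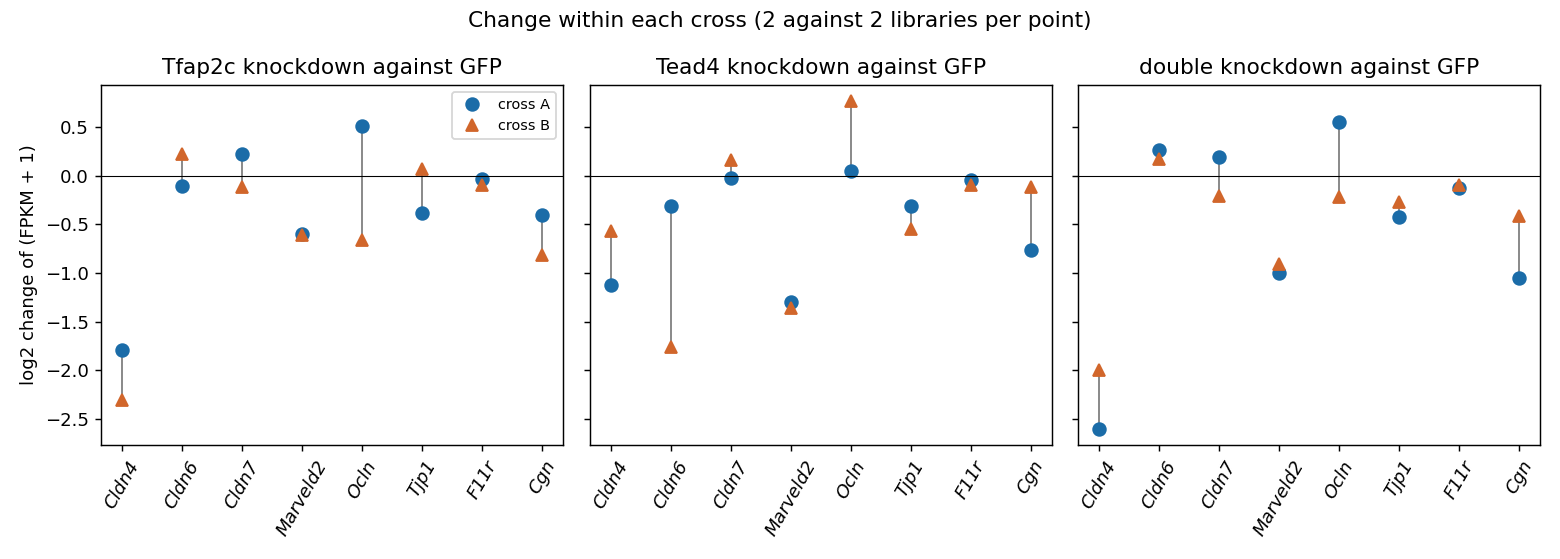
Change of each gene against the GFP libraries of the same cross, in log2(FPKM + 1), 2 against 2 libraries a point, with circles for cross A and triangles for cross B. Marveld2 changes by almost the same amount in both crosses, while Cldn6 after Tead4 dsRNA (-0.31 and -1.76) and Ocln after Tfap2c dsRNA (0.50 and -0.66) differ.

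Across the 16 libraries the 8 genes did not vary as a block. Pearson's r of log2(FPKM + 1), given as a description over libraries that share groups and crosses, was highest for Cldn4 with Cgn (0.72) and Marveld2 with Tjp1 (0.70). It was lowest for Cldn6 with Ocln (-0.75) and Ocln with Tjp1 (-0.65). Neighbouring Marveld2 and Ocln had -0.23. Of 6489 genes with a mean of at least 5 FPKM, those most like Cldn4 were Nedd4l (0.98), a ubiquitin ligase gene, Vps33b (0.96) and Aqp3 (0.96), a water and glycerol channel gene. Those most like Marveld2 were Sgk1 (0.92), a kinase gene, Tmem59 (0.90) and Tead4 itself (0.88), which the dsRNA lowered. For Cldn6 they were Hax1 (0.91), Gm10182 (0.90) and Psme1 (0.88), and for Ocln Psmd1 (0.90), Lman2 (0.89) and Ccdc47 (0.89). For F11r they were Ccnt2 (0.95) and BC003965 (0.90), for Cgn Smim1 (0.90), Pmm1 (0.89) and 4930522L14Rik (0.89), and for Tjp1 Zscan5b (0.85), Stag2 (0.84) and Rab20 (0.82). Cldn7 had no gene as close, with Gtpbp6 (0.75) and Tm9sf2 (0.66) the nearest reported.

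The claudin genes beside Cldn6 and Cldn4 in the genome were near the floor. Cldn9 starts 137 bases from the end of Cldn6 and averaged 0.864 ± 0.267 FPKM with GFP dsRNA, 0.956 ± 0.149 with Tfap2c dsRNA, 0.449 ± 0.191 with Tead4 dsRNA and 0.809 ± 0.359 with both. Cldn3 lies 39279 bases from Cldn4 and reached at most 0.923 FPKM. Neither passed the filter on low values, so neither was tested.

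Of 21 other genes with claudin names in the table, 4 passed that filter, which genes can pass through the group where they are high. After Tfap2c dsRNA 2 were higher and 1 lower, after Tead4 dsRNA 0 changed, and after both 1 was higher and 1 lower. Over all genes tested, 16.3% passed as higher and 13.2% as lower after Tfap2c dsRNA. The shares were 3.35% and 2.78% after Tead4 dsRNA, and 13.9% and 11.3% after both. These shares stand beside the counts of the lists below as well, and no more can be read from counts this small. Cldn5, the claudin of endothelium, stood at 0 to 0.273 FPKM with GFP dsRNA. It reached 1 FPKM only in knockdown libraries and passed the filter through them alone, which limits what its adjusted p can show. With Tfap2c dsRNA it stood at 5.78 and 6.70 FPKM in cross A and at 1.90 and 0.349 in cross B. The change was 1.74 (SE 0.326, limma, adjusted p = 0.00111). With both dsRNAs it stood at 0.664 to 4.83 FPKM, a change of 1.63 (limma, adjusted p = 0.00207). The summed blood markers were also higher in these groups, at 29.1 to 63.0 and 40.7 to 77.7 FPKM against 9.86 to 26.8 with GFP dsRNA, and their part in the Cldn5 change was not tested. Cldn25 (ENSMUSG00000022744) stood at 13.2 to 19.9 FPKM with GFP dsRNA and at 20.9 to 30.9 with Tfap2c dsRNA, a change of 0.71 (limma, adjusted p = 0.00707). The RefSeq genes used here held none named Cldn25, so whether it is a claudin under its present name was not checked. Cldn22 fell by 0.54 and 0.58 on the log2 scale (limma, adjusted p = 0.0253 and 0.0193) from a control level of 0.805 ± 0.173 FPKM. Its Tfap2c knockdown libraries overlapped the controls (exact permutation p = 0.0571). Cldn22 reached 1 FPKM only in the Tead4 knockdown libraries (1.32, 1.46, 1.24 and 1.71), and so passed the filter through that group alone. Reads of Cldn22 and of its neighbour and paralog Cldn24, 1676 bases away, may have been shared.

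Of 15 other membrane proteins of the junction 7 passed the filter, and after Tfap2c dsRNA 2 were higher and 2 lower. Jam2, a relative of F11r, rose by 0.86 after Tfap2c dsRNA (limma, adjusted p = 0.0156) and by 1.16 after both (limma, adjusted p = 0.00280), from 3.71 to 5.09 FPKM in the controls to 6.201 to 18.2 in the double knockdown. The polarity gene Crb3 fell by 0.66 and 0.44 (limma, adjusted p = 0.00181 and 0.0235). The adhesion gene Esam fell by 0.86 and 0.81 with Tfap2c dsRNA alone and with both (limma, adjusted p = 0.0131 and 0.0200). For Crb3 and Esam the double knockdown libraries overlapped the controls (exact permutation p = 0.0571 each). After Tead4 dsRNA alone Esam rose by 0.89 (limma, adjusted p = 0.0359), but its libraries overlapped the controls (exact permutation p = 0.114). Libraries A1, A2, B1 and B2 held 0.622, 0.950, 2.08 and 1.15 FPKM of Esam with GFP dsRNA, and 1.61, 1.31, 5.69 and 5.18 with Tead4 dsRNA. Outside the Tead4 knockdown, only GFP libraries B1 and B2 reached 1 FPKM. After Tead4 dsRNA the adhesion gene Clmp fell by 1.12 (limma, adjusted p = 0.0296), which with Esam made 1 higher and 1 lower. After both dsRNAs 1 was higher and 2 lower.

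Of 13 listed plaque scaffold genes, 7 passed the filter, with 3 higher and 2 lower after Tfap2c dsRNA, 0 changed after Tead4 dsRNA, and 1 higher and 2 lower after both. The polarity scaffold Pard6b fell by 0.72 and 0.63 on the log2 scale with Tfap2c dsRNA alone and with both (limma, adjusted p = 0.0121 and 0.0281). Tjap1, which encodes a junction-associated protein, rose from 2.25 ± 0.532 FPKM (SD, n = 4) to 5.28 ± 0.593 and 5.14 ± 0.970, by 0.96 and 0.92 on the log2 scale (limma, adjusted p = 0.000301 and 0.000514).

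Of 20 genes of junction signalling and traffic 14 passed the filter, with 2 higher and 4 lower after Tfap2c dsRNA, 0 higher and 1 lower after Tead4 dsRNA, and 2 higher and 1 lower after both. The atypical kinase gene Prkcz, whose product acts in cell polarity, fell by 0.91 and 0.87 with Tfap2c dsRNA alone and with both (limma, adjusted p = 0.000645 and 0.00107). Ect2, which encodes an exchange factor for small GTPases, stood at 46.6 ± 8.10 FPKM with GFP dsRNA, rose to 69.9 ± 5.68 with Tfap2c dsRNA and fell to 27.3 ± 4.66 with Tead4 dsRNA (limma, adjusted p = 0.00566 and 0.00461). With both it was 51.9 ± 7.46, a change of 0.16 that did not pass. The actin regulator gene Vasp fell by 0.65 after Tfap2c dsRNA (limma, adjusted p = 0.0191). Ybx3 and Wnk1, which encode a junction-associated nucleic acid binding protein and a kinase of ion transport, rose by 0.43 and 0.31 after both dsRNAs (limma, adjusted p = 0.00189 and 0.0424). The Ybx3 libraries overlapped the controls (exact permutation p = 0.0857).

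**Figure D4:**
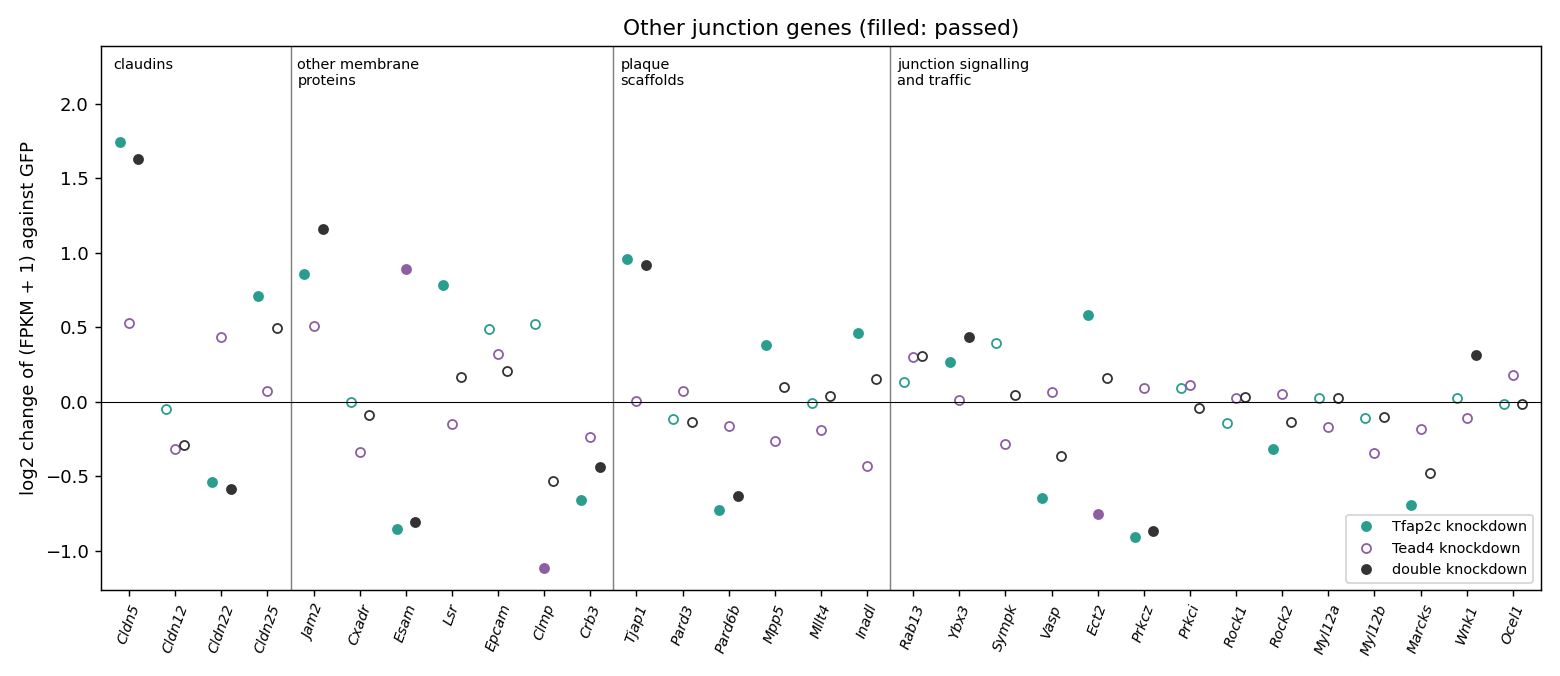
Change against the GFP libraries in log2(FPKM + 1) for 31 of the other junction genes that passed the filter on low values, by list, with filled points past the threshold. Rises and falls occur in each list after Tfap2c dsRNA. Cldn5 (1.74), which passed the filter through knockdown libraries alone, has the largest rise, and Clmp after Tead4 dsRNA (-1.12) the largest fall.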

How the data were processed

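RNA of pools of 10 embryos, about 80 cells, was amplified by Smart-seq2 and made into libraries with a TruePrep kit, per the labels' protocols. The submitters' processing notes name mm10 as the genome, and as tools Cufflinks, STAR, Trim Galore and CASAVA. Their roles and versions, the annotation and the strand setting were not given in the sources used here. Each deposited value is an FPKM, scaled by the authors to gene length and library size, and not counts, so no count model was used and the number of reads behind a value is unknown. Overlapping genes (Gm24261 at Marveld2, LOC115488221 at Ocln, Gm52626 at Cgn) could have shared reads.

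From the 43496 lines, 59 that repeated an identifier were summed with their gene, leaving 43437 genes, and 27 names that had become dates were restored from identifiers. The 11422 genes that reached 1 FPKM in 4 or more libraries went into limma 3.58.1 in R 4.3.3 on log2(FPKM + 1), with empirical Bayes moderation with trend, group and cross as terms, all 16 libraries in the fit, and Benjamini-Hochberg adjustment over all genes tested at 0.05. Responses were compared between crosses by adding the interaction of group and cross. Exact permutation tests were two-sided, over libraries, without regard to cross. A fold on the log2(FPKM + 1) scale understates changes of low genes. The code was tested on simulated data.

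Alternatives were a pseudocount of 0.1, other filters, no cross term, the replicate names as a block, median-ratio and quantile scaling, no trend, fewer groups, and leaving out each library in turn. Fits within each cross were added after the data were seen. The 8 genes and all lists were chosen with earlier results of these data known. Genes named from a list were the 3 with the lowest p among those that passed in each comparison with GFP, the claudin genes next to one of the 8, and the 3 genes most correlated with each of the 8. Locations and promoters are from RefSeq on GRCm38.p6, the assembly also called mm10. The table uses the older names Inadl, Mpp5 and Mllt4. A few genes that these rules select are not reported here.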

Additional observations from a re-analysis of the deposited data

Results flagged for a closer look

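Ocln met the criterion for opposite movement in the 2 crosses. After Tfap2c dsRNA, both cross A libraries were above both GFP libraries of that cross (change 0.50 in log2(FPKM + 1)) and both cross B libraries were below theirs (-0.66). The response in cross B minus that in cross A was -1.16, and its interaction term did not pass (limma, adjusted p = 0.129). Each cross holds 2 libraries of each group, and the cause was not tested.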

How the results depend on the processing

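Of 1008 values of single genes under other settings (8 genes in 7 comparisons), 971 kept their side of the threshold and 0 reversed a call; 33 lost and 4 gained it. In 44, the sign differed with the threshold passed in neither setting. The Cldn4 and Marveld2 falls with Tfap2c dsRNA, alone or with Tead4 dsRNA, and the Marveld2 fall with Tead4 dsRNA passed in all 17 other settings each, those within a cross aside. The excess of the double knockdown over the sum of the single changes (1 gene, Marveld2) went to 0 genes with no filter on low values, with no cross term and with the replicate block, and ran from 0 to 1 with libraries left out. Cgn left the count for Tfap2c knockdown against GFP with no filter on low values and with no cross term. It left that for double knockdown against GFP with no cross term. Cldn6 left that for Tfap2c against Tead4 knockdown with no filter, with no cross term and with only the groups compared. Each of these counts ran from 2 to 3 with libraries left out. Between double and Tead4 knockdown the count went from 2 to 1 with no cross term. For Tead4 knockdown against GFP it went from 1 to 2 after median-ratio rescaling, after quantile normalization and with only the groups compared (Cldn4 added), and ran from 1 to 2 with libraries left out (Cldn6 added). Within cross A, 1 gene passed for Tfap2c knockdown against GFP, 1 for double against Tead4 knockdown, 0 for Tfap2c against Tead4 knockdown and 0 for the excess; within cross B, 6 passed for Tfap2c against Tead4 knockdown (Ocln, Tjp1 and Cgn added), 3 for double against Tead4 knockdown (Ocln added) and 0 for the excess. Each of these fits had 8 libraries. The cause of each change was not tested, beyond the smaller number of libraries.

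As a replicate block, A1, A2, B1 and B2 ended the Marveld2 call for the excess (adjusted p = 0.0703) and no other call of the 8 genes. Differences between the libraries of a cross correlated between groups from -0.165 to 0.176, so the numbers do not pair the libraries. Over all genes, calls for Tfap2c knockdown, Tead4 knockdown and double knockdown against GFP fell from 3377, 700 and 2872 to 2165, 279 and 1786 with no cross term, and for double against Tead4 knockdown from 2712 to 1644. Without GFP library B2 the Tead4 count was 407. Double against Tfap2c knockdown ran from 1 (without double knockdown library A2) to 17 calls (16 as reported), the excess from 7 (no cross term) to 113 (without double knockdown library A2; 86 as reported), and the responses between crosses, each 0 as reported, up to 48 (without double knockdown library B2), 3 (without double knockdown library A1) and 52 (without double knockdown library B2). Median-ratio rescaling moved the median of all genes by -0.06, -0.06 and -0.05. FPKM carry no counts, so counting error at low genes such as Marveld2 and Cldn4 cannot be given.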
